A study of Homo sapiens with 8 samples.

Results

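The genes described here are 10 ligands, receptors and inhibitors of transforming growth factor beta (TGF-beta) and activin signalling, taken by gene symbol from a table of 20323 genes. They are TGFB1, TGFB2 and TGFB3, the activin subunit genes INHBA and INHBB, the receptor genes TGFBR1, TGFBR2 and TGFBR3, and the inhibitor genes FST and SMAD7. Messenger RNA was sequenced in H2452, an established human cell line from a pleural mesothelioma. One group of 4 libraries came from cells exposed to 20 nM DPT for 48 h. DPT is deoxypodophyllotoxin, a podophyllotoxin relative that keeps microtubules from assembling. The other group of 4 libraries came from cells kept for 48 h with the solvent, DMSO. All cells were of a single line with the genotype given as wild type, so the values describe that line alone. The series design calls the 4 libraries of a group biological replicates.

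TGF-beta and activin are secreted dimers of one protein superfamily. A ligand brings a type II receptor (TGFBR2 for TGF-beta) together with a type I receptor (TGFBR1), which phosphorylates SMAD2 and SMAD3, and these move with SMAD4 to the nucleus. Follistatin, the product of FST, traps activin outside the cell, and SMAD7 blocks the receptor inside it and is itself switched on by the pathway. In mesothelial cells TGF-beta is known for driving a change towards a mesenchymal form and for matrix production.

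With all 8 libraries, TGFBR2 and FST rose under DPT and no member fell. TGFBR2, the signalling receptor that binds the ligand, was 1.41-fold higher and was also the most abundant of the 10 messages per length. FST was 2.13-fold higher at a low level. SMAD7 and INHBA were also higher, and TGFB2 and TGFBR3 lower, once a pair of libraries that stands apart was taken into account. TGFB1, TGFB3 and TGFBR1 did not pass the test in any of these fits, and INHBB was too low to test.

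Stretches of sequence by the start sites of 4 genes are shown. TGFBR2 and FST, which act at the receptor or on ligand, were higher in DPT with all 8 libraries. SMAD7, which acts at the receptor, was higher, and the ligand TGFB2 lower, once the pair was taken into account. For each gene the start and the stretch were chosen because they hold a motif match. They come from RefSeq promoter windows on GRCh38.p14, each 250 bases before to 50 bases after an annotated start, and all 10 genes matched that table, with 21 starts between them. Motifs were searched on both strands. AP-1 was taken as TGAGTCA, or with T in place of its central G. The cAMP response element was taken as TGACGTCA and the palindromic Smad-binding element as GTCTAGAC. The Smad-binding CAGA sequence was taken as CAGACA and the TATA box as TATAAA. No match of these motifs overlapped another in the stretches shown.
TGFBR2, chr3:30606583-30606612, plus strand, AP-1 match in capitals: gttgaagttgagTGAGTCActcgcgcgcac
FST, chr5:53480457-53480486, plus strand, AP-1 match in capitals: ggaaatgtcaccTGATTCAcactgaacttt
SMAD7, chr18:48949336-48949433, minus strand, TATA box in capitals: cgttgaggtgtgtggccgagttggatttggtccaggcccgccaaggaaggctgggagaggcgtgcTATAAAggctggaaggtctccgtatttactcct
TGFB2, chr1:218345283-218345312, plus strand, CAGA sequence and TATA box in capitals: CAGACAcgtggttcagagagaactTATAAA

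An AP-1 match lay in 2 of the 21 member windows. In the window of FST it begins 160 bases before the RefSeq start (53480629). In 1 of the 2 windows of TGFBR2 it begins 6 bases before the RefSeq start (30606601). Over all 35116 windows in the RefSeq table, 7.71% held an AP-1 match. The CAGA sequence was in 4 member windows, of INHBA, TGFB2 and TGFBR1, against 16.9% of all windows, and the TATA box in 4, of INHBA, SMAD7, TGFB2 and TGFB3, against 11.5%. SMAD7 has 3 starts in the RefSeq table, and the stretch shown is by its only start with a TATA box match (48949333). That start lies inside SMAD7 as placed below (48919853 to 48952052, minus strand). The AP-1 matches of FST and TGFBR2 also lie inside those genes as placed below, where FST begins at 53480409 and TGFBR2 at 30606502. Both matches begin before the start only by the RefSeq starts. The cAMP response element (1.85% of all windows) and the palindromic Smad-binding element (0.202%) were in none of the 21. Such matches are descriptions of letters, not of binding.

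Library totals were 14964432 to 17205391 counts, and levels are counts scaled to library size with TMM factors (CPM), so that 1 CPM was 14.8 to 17.1 counts. DPT replicate 2 and DMSO replicate 3 stood apart from the other 6 libraries on the first principal component (29.26 and 40.76, against -25.6 to -1.02; 36.8% of the variance). The summed level of 10 interferon-stimulated genes was 1413 CPM in DPT replicate 2 and 2113 CPM in DMSO replicate 3, against 8008 to 9017 CPM in the others. The summed level of 10 mitosis genes was 3186 and 3093 CPM in the same libraries, against 1794 to 2157 CPM. The part of these differences in the results below was not tested, and values with a model term for this pair, and from the other 6 libraries, are given for the 10 members where they change a call, and for the other pathway genes as counts. Of 9 mesothelial markers all were detected, with a summed 2163 to 3545 CPM in DPT and 3376 to 4859 CPM in DMSO. Nearly all of that sum came from the keratins KRT7, KRT8, KRT18 and KRT19 (group means of 176 to 1781 CPM). MSLN, CALB2, WT1 and PDPN had group means of 8.17 to 19.5 CPM, and UPK3B 1.82 CPM in DPT and 3.83 CPM in DMSO. The fibroblast markers LUM and DCN had no counts in any library, THY1 supplied most of the fibroblast sum (33.1 to 39.8 CPM in DPT, 38.4 to 52.6 CPM in DMSO), and endothelial markers summed to 2.88 to 4.54 CPM in DPT and 1.34 to 4.55 CPM in DMSO. Leukocyte markers summed to 88.6 to 128.8 CPM in DPT and 83.5 to 103.8 CPM in DMSO, nearly all from CD68, a lysosomal protein that is not limited to leukocytes. In bulk RNA, fewer cells that express a gene and less RNA per cell cannot be told apart.

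Of the 12648 genes tested, 718 were higher and 669 lower in DPT at an adjusted p under 0.05, which is 11.0% of them (5.68% higher and 5.29% lower). Of the 10 members 9 passed the filter on low counts, and 2 of the 9 were called, both higher. None was lower in edgeR, DESeq2 or limma-voom (0 in each), nor at an unadjusted p under 0.05 in edgeR (0 of 9). The median log2 fold change of the 9 was 0.18, beside -0.002 over all genes. With the term for the pair 4 members were higher and 2 lower, where 34.0% of all genes were called (16.9% higher, 17.0% lower), and the 6 libraries gave the same 4 and 2 counts, against 34.1% (17.0% higher, 17.1% lower). With few members, their counts say nothing beyond the genes named. All 1387 genes called with 8 libraries kept their call and direction with the term.

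**Figure D1:**
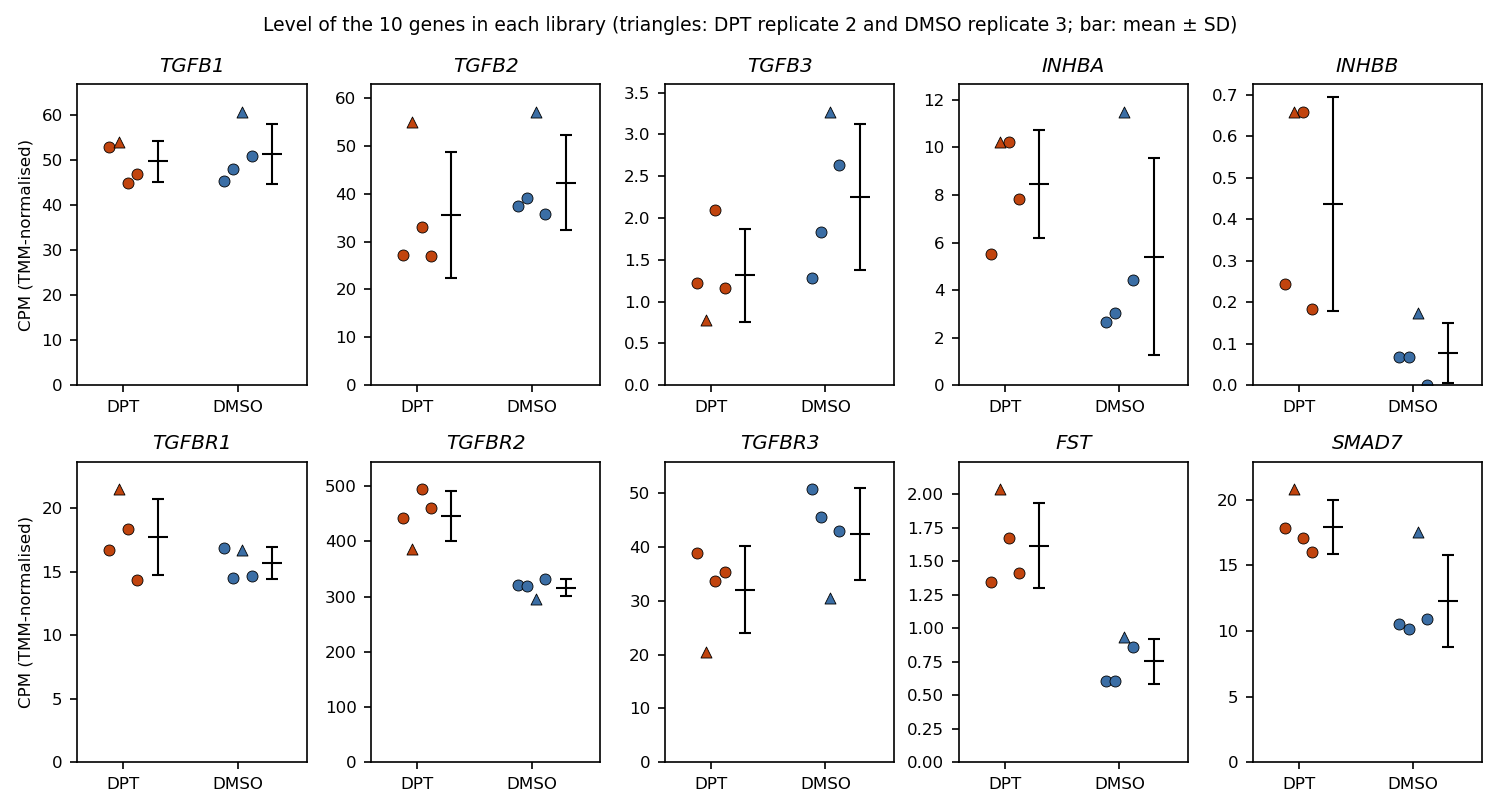
Level of each of the 10 genes in TMM-normalised CPM, with 1 point per library, DPT left of DMSO, and the mean ± SD (n = 4) as a bar beside the points. Triangles are DPT replicate 2 and DMSO replicate 3. The DPT and DMSO points do not overlap for TGFBR2, FST and INHBB, and the DMSO triangle stands above the other DMSO points for TGFB1, TGFB2, TGFB3, INHBA, INHBB, FST and SMAD7.

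The ligand TGFB1 (ENSG00000105329, chromosome 19, 41301587 to 41353911 of GRCh38, minus strand), the best known of the 3 isoforms and the main one in many adult tissues, had 53.0, 53.9, 44.9 and 47.0 CPM in DPT replicates 1 to 4 and 45.5, 48.1, 60.7 and 51.0 CPM in DMSO replicates 1 to 4. The groups overlapped, and the highest library was DMSO replicate 3. Its log2 fold change was -0.05 (95% interval -0.28 to 0.18, adjusted p = 0.824, edgeR's quasi-likelihood test with Benjamini-Hochberg adjustment over all genes, as for each adjusted p here). The gene shares its locus with HNRNPUL1, CCDC97 and TMEM91 on the other strand, and the sources used here do not give the strand setting of the counting.

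TGFB2 (ENSG00000092969, chromosome 1, 218346235 to 218444619, plus strand) encodes the isoform that needs the co-receptor TGFBR3 for tight binding. It had 27.3, 54.9, 33.0 and 27.1 CPM in DPT replicates 1 to 4 and 37.5, 39.0, 57.1 and 35.7 CPM in DMSO replicates 1 to 4. Both libraries of the pair were above 50 CPM, and without them the 3 DPT libraries (27.1 to 33.0 CPM) lay below the 3 DMSO libraries (35.7 to 39.0 CPM). With all 8 the log2 fold change was -0.25 (SE 0.24, adjusted p = 0.556). Under the pair term TGFB2 fell by 0.28 on the log2 scale (SE 0.079, adjusted p = 0.0127), and in the 6 libraries by 0.36 (adjusted p = 0.00343). Within the pair DPT replicate 2 was only 0.06 log2 below DMSO replicate 3. Leaving out DPT replicate 2 alone also gave a call (-0.54, adjusted p = 0.0486), while leaving out DMSO replicate 3 alone did not (-0.08, adjusted p = 0.856). The transcript TGFB2-OT1 lies within the gene, so that reads may be split between them.

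TGFB3 (ENSG00000119699, chromosome 14, 75958099 to 75982991, minus strand), the isoform known from palate closure and scarless healing, was the scarcest of the 3. It had 1.22, 0.779, 2.09 and 1.16 CPM in DPT replicates 1 to 4, and 1.29, 1.83, 3.27 and 2.64 CPM in DMSO replicates 1 to 4. The lowest library was DPT replicate 2 and the highest DMSO replicate 3, and the groups overlapped. The log2 fold change of -0.78 (SE 0.37) did not pass with 8 libraries (adjusted p = 0.218), with the term (adjusted p = 0.106) or in the 6 libraries (-0.36, adjusted p = 0.475). IFT43 and the transcript TGFB3-AS1 lie across the gene on the other strand.

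The authors' FPKM, which divide fragments by transcript length and by library depth, allow levels of different genes to be set side by side. On that scale TGFB1 made up 73.5% ± 5.65 of the summed FPKM of the 3 TGF-beta ligands in DPT and 68.3% ± 2.07 in DMSO (SD, n = 4 each). TGFB2 made up 24.5% ± 6.10 in DPT and 27.2% ± 2.36 in DMSO. TGFB3 made up 1.99% ± 1.03 in DPT and 4.46% ± 2.09 in DMSO. In both groups TGFB1 was thus the leading ligand message, and the share of each ligand overlapped between the groups.

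INHBA (ENSG00000122641, chromosome 7, 41667168 to 41705834, minus strand) encodes the beta A chain, a pair of which forms activin A. It had 5.51, 10.25, 10.2 and 7.84 CPM in DPT replicates 1 to 4 and 2.64, 3.05, 11.5 and 4.42 CPM in DMSO replicates 1 to 4. DMSO replicate 3 was the highest library of all, while the other 3 DMSO libraries were below each DPT library. With all 8 libraries the difference did not pass (log2 fold change 0.63, SE 0.43, adjusted p = 0.4003).

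INHBA was higher with the term for the pair (0.78, SE 0.25, adjusted p = 0.0231), in the 6 libraries (1.22, SE 0.24, adjusted p = 0.000676) and when DMSO replicate 3 alone was left out (1.32, adjusted p = 0.0142). Within the pair DPT replicate 2 was 0.17 log2 below DMSO replicate 3. The difference of the effect between the pair and the other libraries, an interaction in the edgeR model, was -1.39 log2, and its edgeR p of 0.00331 did not pass adjustment over all genes (adjusted p = 0.136, with 119 genes or 0.941% called). INHBA-AS1 lies across the gene on the other strand, so its reads may not be separated from those of INHBA.

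INHBB (ENSG00000163083, chromosome 2, 120346143 to 120351808, plus strand), which encodes the beta B chain of activin B, was near the limit of detection. It had 4, 11, 11 and 3 counts in DPT replicates 1 to 4 and 1, 1, 3 and 0 counts in DMSO replicates 1 to 4. No DMSO library was above the lowest DPT library in CPM (0.184 to 0.659 CPM in DPT, 0 to 0.175 CPM in DMSO). Such groups without overlap, DPT above DMSO, were found for 2 of the 9 tested members (TGFBR2 and FST) and for 9.50% of the genes tested. INHBB, itself not tested, is not among these. The opposite was found for 0 members and 8.73% of the genes tested. The sums of 29 and 5 counts gave a ratio of 5.43 (95% exact interval 2.08 to 17.9, counting error only), and the two-sided exact permutation test over the libraries gave p = 0.0286, the smallest that 4 against 4 can give. The log2 ratio of mean CPM was 2.49 with all 8 libraries and 3.27 without DMSO replicate 3, and 2.08 to 2.75 without any other single library. The gene did not pass the filter on low counts. With no filter its log2 fold change was 2.33 and its adjusted p 0.110, so no change was called, and a count of 0 in DMSO replicate 4 allows up to 0.198 CPM.

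Among the receptors, TGFBR2 (ENSG00000163513, chromosome 3, 30606502 to 30694142, plus strand) had 441.6, 385.5, 494.6 and 461.1 CPM in DPT replicates 1 to 4 and 320.2, 318.6, 294.9 and 332.3 CPM in DMSO replicates 1 to 4. Each DPT library was above each DMSO library, and the lowest library of each group was the one in the pair. The mean was 446 ± 45.7 CPM in DPT and 317 ± 15.6 CPM in DMSO (SD, n = 4 each). The log2 fold change was 0.49 (SE 0.083, 95% interval 0.31 to 0.68, adjusted p = 0.00689). It was 0.49 with the term and 0.52 in the 6 libraries, DPT replicate 2 exceeded DMSO replicate 3 by 0.39, and the call held with each single library left out (0.44 to 0.56, adjusted p up to 0.0299).

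TGFBR1 (ENSG00000106799, chromosome 9, 99104038 to 99154192, plus strand), the kinase that phosphorylates SMAD2 and SMAD3, had 16.8, 21.5, 18.4 and 14.3 CPM in DPT replicates 1 to 4 and 16.9, 14.5, 16.8 and 14.7 CPM in DMSO replicates 1 to 4. The groups overlapped. The log2 fold change of 0.18 (95% interval -0.11 to 0.46, adjusted p = 0.431) did not pass, nor did it with the term (0.17, adjusted p = 0.199).

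TGFBR3 (ENSG00000069702, chromosome 1, 91680343 to 91906335, minus strand), or betaglycan, presents ligand to TGFBR2 and also binds inhibin. It had 38.7, 20.4, 33.7 and 35.3 CPM in DPT replicates 1 to 4 and 50.7, 45.5, 30.5 and 42.9 CPM in DMSO replicates 1 to 4. The lowest library of each group was the one in the pair, and DMSO replicate 3 fell among the DPT libraries. With all 8 the log2 fold change was -0.40 (SE 0.21, adjusted p = 0.247). Under the pair term TGFBR3 fell by 0.42 on the log2 scale (SE 0.075, adjusted p = 0.000424), by 0.37 in the 6 libraries (adjusted p = 0.00165), and DPT replicate 2 was 0.58 below DMSO replicate 3 within the pair.

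**Figure D2:**
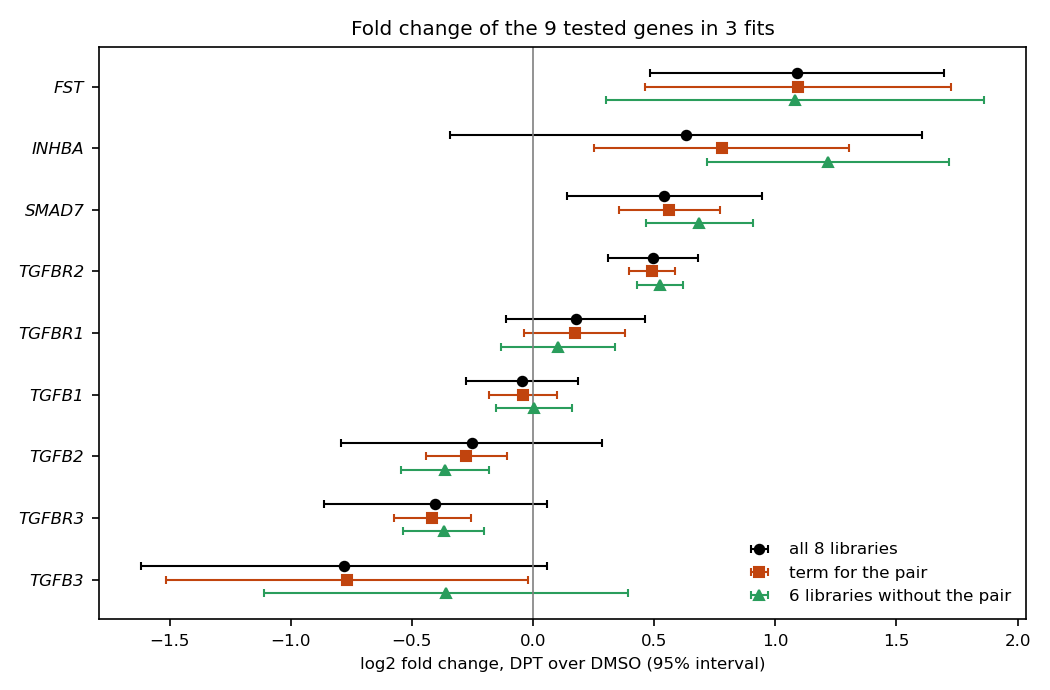
Log2 fold change of DPT over DMSO with its 95% interval for the 9 genes that passed the filter on low counts, from all 8 libraries (circles), from the fit with a term for DPT replicate 2 and DMSO replicate 3 (squares) and from the other 6 libraries (triangles). FST, SMAD7 and TGFBR2 lie above 0 in each fit, and the intervals of INHBA, TGFB2 and TGFBR3 leave 0 in the fits that account for the pair. That of TGFB3 leaves 0 only in the fit with the term (-1.515 to -0.0199), where it was not called (edgeR adjusted p = 0.106). The intervals of TGFB1 and TGFBR1 include 0 in each fit.

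Of the inhibitors, FST (ENSG00000134363, chromosome 5, 53480409 to 53487134, plus strand) encodes follistatin, which binds activin and keeps it from its receptor. It had 1.35, 2.04, 1.67 and 1.41 CPM (22 to 34 counts) in DPT replicates 1 to 4 and 0.610, 0.610, 0.934 and 0.857 CPM (9 to 16 counts) in DMSO replicates 1 to 4. Each DPT library was above each DMSO library. The log2 fold change was 1.09 (SE 0.27, 95% interval 0.48 to 1.69, adjusted p = 0.0317), 1.09 with the term (adjusted p = 0.00945) and 1.13 within the pair. At these counts the call was not firm. It held without DMSO replicate 3 (adjusted p = 0.0333), was lost without DPT replicate 1, 2, 3 or 4 or DMSO replicate 1, 2 or 4 (0.0511 to 0.101, with log2 fold changes of 0.96 to 1.17), and was lost with no filter on low counts (adjusted p = 0.0559).

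SMAD7 (ENSG00000101665, chromosome 18, 48919853 to 48952052, minus strand) had 17.9, 20.8, 17.04 and 16.0 CPM in DPT replicates 1 to 4 and 10.5, 10.2, 17.5 and 10.9 CPM in DMSO replicates 1 to 4. DMSO replicate 3 lay within the DPT range, and the other 3 DMSO libraries were below all 4 DPT libraries. With all 8 the log2 fold change was 0.54 (SE 0.18, adjusted p = 0.0860 in edgeR, and adjusted p = 0.0389 in DESeq2). Under the pair term SMAD7 rose by 0.56 (SE 0.099, adjusted p = 0.000357), in the 6 libraries by 0.69 (adjusted p = 6.75e-05) and with DMSO replicate 3 alone left out by 0.76 (adjusted p = 0.00392). DPT replicate 2 exceeded DMSO replicate 3 by 0.25 log2.

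Per length, TGFBR2 was the most abundant of the 10 messages, with 99.3 ± 10.5 FPKM in DPT and 68.5 ± 2.92 FPKM in DMSO (SD, n = 4 each). TGFB1 followed with 18.4 ± 1.81 FPKM in DPT and 18.4 ± 2.49 FPKM in DMSO, apart from its neighbours in the order in all libraries. TGFB2, TGFBR3, SMAD7 and TGFBR1 came next with group means of 3.63 to 7.45 FPKM, and in DPT each overlapped the next in range. In DMSO, TGFB2 (6.26 to 9.96 FPKM) and TGFBR3 (5.36 to 9.28 FPKM) overlapped each other and lay above SMAD7 (3.30 to 5.29 FPKM) and TGFBR1 (2.96 to 4.24 FPKM), which also overlapped each other. INHBA, TGFB3 and FST had group means of 0.323 to 1.53 FPKM. In DPT, INHBA (0.923 to 2.17 FPKM) lay above TGFB3 (0.246 to 0.679 FPKM), and FST overlapped both. In DMSO, INHBA (0.429 to 2.15 FPKM) lay above FST (0.261 to 0.404 FPKM), and TGFB3 overlapped both. INHBB was last with 0.138 ± 0.0818 FPKM in DPT and 0.024 ± 0.0223 FPKM in DMSO. TGFBR2 exceeded its partner TGFBR1 22.3-fold ± 7.78 in DPT and 19.3-fold ± 3.28 in DMSO in FPKM. It exceeded the co-receptor TGFBR3 17.5-fold ± 4.85 in DPT and 9.52-fold ± 1.96 in DMSO, with each DPT library (13.6 to 24.6) above each DMSO library (7.46 to 12.0).

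**Figure D3:**
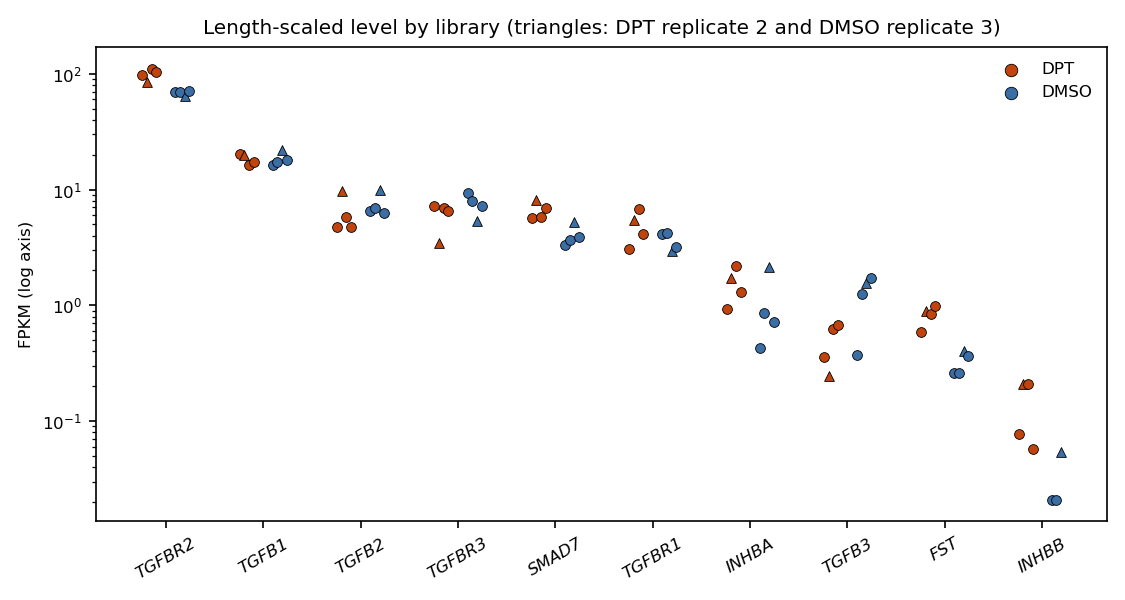
FPKM of each gene in each library on a log axis, DPT left of DMSO within a gene, ordered by the mean over all libraries. Triangles are DPT replicate 2 and DMSO replicate 3, and the INHBB value of 0 in DMSO replicate 4 is not drawn. TGFBR2 stands above TGFB1 and TGFB1 above the other 8 genes in all libraries.

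The genes whose level followed TGFBR2 most closely over the 8 libraries (Pearson's r of log2 CPM) were SLC3A2, the heavy chain of amino acid transporters (r = 0.995), TMEM39A (r = 0.993) and PALB2, a DNA repair protein (r = 0.993). Their log2 fold changes were 0.61, 0.37 and 0.25. For FST they were PEA15, an adaptor of MAP kinase and death receptor signalling (r = 0.984), MRTO4, a ribosome assembly factor (r = 0.982), and ODC1, the first enzyme of polyamine synthesis (r = 0.978), with log2 fold changes of 0.20, 0.39 and 0.83. These libraries share the treatment contrast and the difference of the pair, and the values are a description.

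The rest of the pathway was read from 7 lists of 98 genes, of which 82 were tested. Of these, 9 rose and 10 fell with all 8 libraries, beside 5.68% and 5.29% of all genes, and 25 rose and 28 fell with the term for the pair, beside 16.9% and 17.0% of all genes in that fit. Among 8 tested ligands of 15, 0 rose and 1 fell in edgeR, DESeq2 and limma-voom (median log2 fold change -0.47, with 1 higher at an unadjusted p under 0.05 in edgeR). It was GDF6, a ligand of the bone morphogenetic protein (BMP) group, with 0.465 ± 0.522 CPM in DPT and 2.39 ± 0.853 CPM in DMSO (SD, n = 4 each, log2 fold change -2.34, adjusted p = 0.0455). Without any one library other than DPT replicate 2 that call was lost (adjusted p up to 0.118). The pair term gave 1 ligand higher and 4 lower. Of the 7 other SMAD genes, all tested, 0 were called with 8 libraries in edgeR, DESeq2 or limma-voom. SMAD3, which carries the TGF-beta signal, was the only one of them at an unadjusted p under 0.05 in edgeR (-0.26, adjusted p = 0.126). With the pair term 2 of the 7 were lower, SMAD3 (-0.26, adjusted p = 0.000156) and SMAD6 (-0.76, adjusted p = 0.0107), and SMAD3 alone in the 6 libraries (-0.28, adjusted p = 8.07e-05, against 0.0746 for SMAD6). SMAD3 had 267 ± 24.9 CPM in DPT and 320 ± 35.4 CPM in DMSO.

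Of 8 tested receptors of 10, 2 rose and 1 fell (median -0.06), beside 5.68% and 5.29% of all genes. The pair term gave 2 higher and 2 lower, beside 16.9% and 17.0% of all genes. ACVR1, a type I receptor for BMPs and activin, had 110.4 ± 8.94 CPM in DPT and 90.6 ± 1.498 CPM in DMSO (log2 fold change 0.29, adjusted p = 0.0278). BMPR1B, a type I BMP receptor, had 2.79 ± 0.899 CPM in DPT and 1.33 ± 0.132 CPM in DMSO (1.06, adjusted p = 0.0347), a call that limma-voom did not make (1.00, adjusted p = 0.0549). BMPR2, the type II BMP receptor, had 102.3 ± 2.69 CPM in DPT and 123.7 ± 9.18 CPM in DMSO (-0.27, adjusted p = 0.0280). The libraries of the groups did not overlap for these 3 genes. With 1 library left out the log2 fold changes ranged from 0.25 to 0.34 (ACVR1), 0.85 to 1.22 (BMPR1B) and -0.31 to -0.22 (BMPR2). Most of those fits did not call these genes. Over all genes the same fits called 332 to 1183 higher and 311 to 1108 lower, against 718 and 669 with all 8 libraries. ACVR1 was called only without DPT replicate 2 or DMSO replicate 3, BMPR1B only without DPT replicate 2, and BMPR2 only without DPT replicate 2, DMSO replicate 2 or DMSO replicate 3, when 1 library was left out (adjusted p up to 0.104 otherwise).

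Of 15 tested regulators of 16, 1 rose and 0 fell in edgeR, DESeq2 and limma-voom (median 0.17, with 4 higher and 1 lower at an unadjusted p under 0.05 in edgeR). It was SMURF2, a ubiquitin ligase that SMAD7 brings to the receptor for degradation. SMURF2 had 111.4, 137.9, 124.1 and 110.9 CPM in DPT replicates 1 to 4 and 58.3, 60.3, 78.7 and 55.0 CPM in DMSO replicates 1 to 4, with no overlap. It rose 1.92-fold (log2 fold change 0.94, SE 0.12, adjusted p = 0.00231), a call that held in each fit run. Of 10 tested genes of ligand storage and activation of 12, 0 rose and 2 fell (median -0.23, with 1 higher at an unadjusted p under 0.05, and 1 called higher in DESeq2). With the pair term 1 was higher and 6 lower, beside 16.9% and 17.0% of all genes. In the 6 libraries 1 was higher and 5 lower, beside 17.0% and 17.1% of all genes. ITGB8, the integrin chain that releases TGF-beta from its latent complex, fell 2.23-fold, with 19.3 ± 1.24 CPM in DPT and 42.9 ± 3.57 CPM in DMSO (adjusted p = 0.000159). LTBP2, a latent TGF-beta binding protein family member of elastic fibres, had 80.5 ± 4.66 CPM in DPT and 96.6 ± 2.66 CPM in DMSO (-0.26, adjusted p = 0.0251), and was not called without DPT replicate 3 or 4 or DMSO replicate 1, 2 or 4 (adjusted p up to 0.0865).

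Genes that TGF-beta is known to switch on moved both ways. Of 33 tested members of 37, 6 rose and 7 fell (median 0.08), beside 5.68% and 5.29% of all genes. The pair term gave 14 higher and 12 lower, beside 16.9% and 17.0% of all genes. SPHK1, the sphingosine kinase, had 39.3 ± 2.45 CPM in DPT and 20.2 ± 3.03 CPM in DMSO (log2 fold change 0.96, adjusted p = 0.00132). BHLHE40, a repressor of the clock and hypoxia responses, had 71.9 ± 6.72 CPM in DPT and 47.5 ± 3.78 CPM in DMSO (0.60, adjusted p = 0.00389). Those of smallest p among the falls were the collagens COL3A1 (-1.45), COL1A2 (-1.23) and COL4A1 (-0.41, adjusted p = 0.0102).

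Of the 8 genes that BMP is known to switch on, all tested, 0 were called with 8 libraries in edgeR, DESeq2 or limma-voom (median -0.60). HEY1, a repressor also known from Notch signalling, was the only one of them at an unadjusted p under 0.05 in edgeR (1.19, adjusted p = 0.110). The fit with the pair term called 1 of them higher and 5 lower, beside 16.9% and 17.0% of all genes. The 6 libraries gave 1 and 4, beside 17.0% and 17.1% of all genes.

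**Figure D4:**
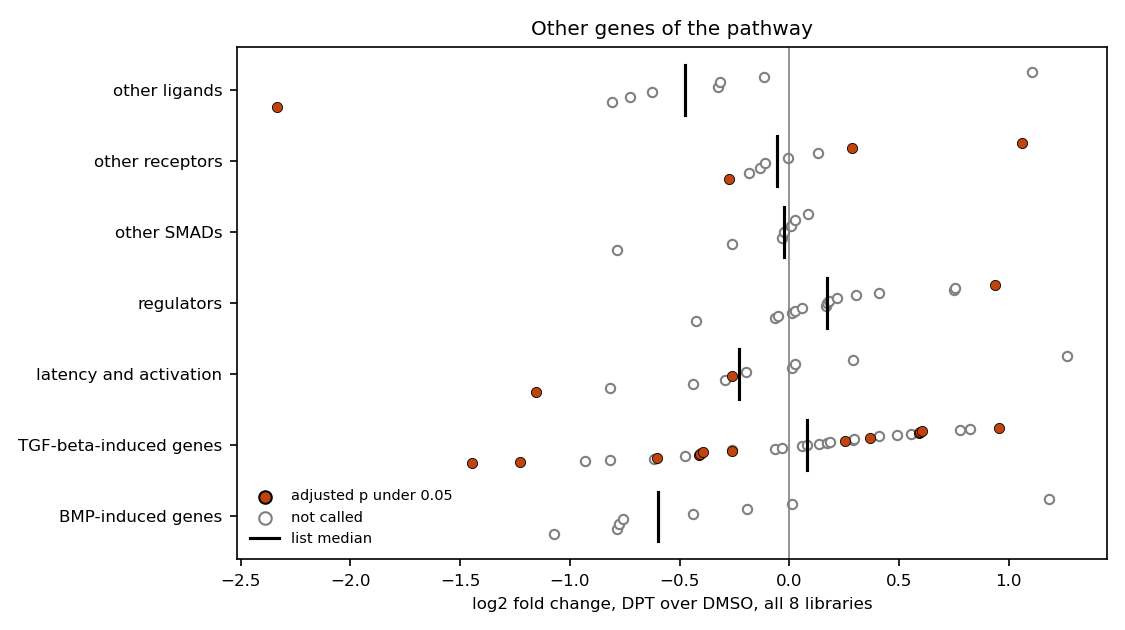
Log2 fold change of DPT over DMSO with all 8 libraries for the tested genes of the 7 pathway lists, 1 point per gene, filled where the adjusted p was under 0.05, with the list median as a black line. Regulators hold 1 filled point (SMURF2), the SMAD and BMP-induced genes hold none, and the TGF-beta-induced genes have filled points on both sides of 0.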

How the data were processed

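The deposited table gave 2 values per library for each Ensembl gene. Per the file headers and the values, the first was an expected count as deposited by the authors, of which 10.8% were not whole numbers (all those of the 10 members were). The second was FPKM, as the authors deposited it per the file headers. The build hg38 and the tools RSEM, HISAT2, DESeq2, fastp (0.18.0) and StringTie (1.3.1) are named in the submitters' processing notes, without role, order or settings. Expected counts share reads between similar transcripts, and FPKM also moves with the transcript lengths that were assigned.

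Counts were rounded and tested with edgeR 4.0.16 in R 4.3.3 (filterByExpr, at least 10 counts at the median library size and 15 in total, TMM, quasi-likelihood test on treatment alone, all 8 libraries, Benjamini-Hochberg over the 12648 genes kept, called under an adjusted p of 0.05). SE is that of the log2 fold change of DPT over DMSO. Alternatives were RLE factors, DESeq2 1.42.0, limma-voom 3.58.1, no filter, a replicate block and leaving out each library. A term for the pair of libraries that stood apart (principal components of log2 CPM, prior count 2), a fit without the pair and the interaction were added with the data known. The scripts were tested on simulated data.

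The members, the gene lists and the alternatives were chosen with earlier results of these data known. The text names all members, up to 3 called genes with the smallest p per direction in each pathway list, the 3 genes most correlated with each of the 2 members of smallest p, and beside these SMAD3, SMAD6 and HEY1 and the genes of the closing section, chosen after their values were seen. One gene that this rule names is not reported here. Gene positions come from GENCODE 29 (GRCh38), and promoter sequence from RefSeq (GRCh38.p14). P-values of the fit to all 8 libraries set the difference against the spread between the 4 libraries of a group. Fits that leave out libraries rest on fewer. With the term for the pair, the difference of the pair is taken out of that spread.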

Additional observations from a re-analysis of the deposited data

Results flagged for a closer look

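Among the 20 sets of 4 libraries tested (10 genes in each group), 2 held a library far from the other 3, where chance flags about 1 in 20. Both were DMSO replicate 3, one of the pair that stands apart. TGFB2 measured 57.1 CPM there, against 35.7 to 39.0 CPM in the other DMSO libraries. SMAD7 measured 17.5 CPM there, against 10.2 to 10.9 CPM. DPT replicate 2 was also the highest of its group for both genes, with 54.9 CPM for TGFB2 and 20.8 CPM for SMAD7.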

How the results depend on the processing

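With the term for the pair 2140 genes were higher and 2156 lower, and 25 and 28 of the pathway lists. In the 6 libraries the counts were 2158 and 2169, and 26 and 25. Member values that gained a call were TGFB2 (-0.28 with the term, -0.36 in the 6 libraries), INHBA (0.78 and 1.22), TGFBR3 (-0.42 and -0.37) and SMAD7 (0.56 and 0.69, and 0.54 in DESeq2). With no filter FST lost its call (1.08). The labels do not say whether the replicate numbers pair the libraries. The deviations of same-numbered libraries from their group means correlated at 0.20, -0.31, -0.40 and 0.21. The highest correlation was that of DPT replicate 2 with DMSO replicate 3 (0.676). Since that pair stands apart and enters both group means, these values cannot decide whether the numbers pair the libraries. With the replicate block 171 genes were higher and 174 lower, 5 and 3 of the lists, and TGFBR2 (0.49) and FST (1.09) were not called (adjusted p 0.0560 and 0.114).

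Leaving out 1 library gave 332 to 1183 genes higher and 311 to 1108 lower, and 5 to 14 and 4 to 17 of the lists. The highest of these counts came without DPT replicate 2. The counts over all genes moved by over 1.5 times without any library other than DMSO replicate 3. The list count moved by over 1.5 times without DPT replicate 2, 3 or 4 for rises, and without any library other than DMSO replicate 3 for falls. Over the same fits FST ranged from 0.96 to 1.21, INHBA from 0.41 to 1.32, SMAD7 from 0.46 to 0.76 and TGFB2 from -0.543 to -0.0763. TGFB1, TGFB3 and TGFBR1 kept their side of the threshold in all 15 alternatives. The low counts of FST, INHBB and TGFB3 limit their precision.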

Other observations

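With the term for the pair, 7 of the 15 tested pathway regulators were higher and 0 lower, beside 16.9% and 17.0% of all genes tested. These genes were chosen after their values were seen. They include secreted antagonists. GREM1, an antagonist of BMPs, had 41.0 ± 14.1 CPM in DPT and 24.2 ± 11.9 CPM in DMSO (SD, n = 4 each; log2 fold change 0.79 with the term, adjusted p = 1.47e-06 in edgeR). NOG, or noggin, another, had 10.8 ± 2.98 CPM in DPT and 6.38 ± 3.38 CPM in DMSO (0.81, adjusted p = 0.000623). FSTL3, a relative of follistatin that binds activin, had 69.1 ± 19.3 CPM in DPT and 52.0 ± 18.0 CPM in DMSO (0.42, adjusted p = 1.99e-05). The ubiquitin ligases SMURF1 (0.17) and NEDD4L (0.30) and the deubiquitinase USP15 (0.18) made up the rest with SMURF2. With all 8 libraries SMURF2 alone of the 7 was called.

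With the same term the BMP-induced genes ID1 (-0.48), ID2 (-0.75), ID4 (-0.78), SMAD6 (-0.76) and ATOH8 (-1.13) were lower and HEY1 (1.16) higher, and in the 6 libraries SMAD6 was not called (-0.72, adjusted p = 0.0746). The stress cytokine GDF15 had 19.4 ± 8.51 CPM in DPT and 9.08 ± 3.60 CPM in DMSO. Its log2 fold change with the term was 1.08 (adjusted p = 2.41e-07), while with all 8 libraries its adjusted p was 0.134.

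The FPKM and count columns gave different pictures of some members. Dividing counts by FPKM and library total gives the length assigned to a gene, which was 4.55 kb for TGFBR2 in all libraries to within 1.002-fold, but 1.44 to 3.43 kb for TGFB3 and 2.77 to 5.63 kb for TGFBR1. For TGFB3 the log2 ratio of group means, DPT over DMSO, was -1.36 in FPKM and -0.78 in CPM. For TGFBR1 it was 0.42 in FPKM and 0.18 in CPM. SMAD7 did not overlap between groups in FPKM (5.73 to 8.07 in DPT, 3.30 to 5.29 in DMSO), while in CPM DMSO replicate 3 lay within the DPT range.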
